A study of Mus musculus with 4 samples.

Results

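The comparison described here sets fully grown, germinal vesicle stage (GV) oocytes of Erk-/- mice against those of wild-type mice. Its members are the 8240 genes, of 23309 gene symbols in each file, that reached at least 5 FPKM in at least 1 of the 2 GV libraries. FPKM counts sequenced fragments per length of transcript and relative to library size. Each GV library came from 60 oocytes, lysed together, of ICR females aged 21 to 23 days. The first group was wild type and the second was Erk-/-, with 1 library each. Which exons were removed is not in the labels, nor which promoter drove a Cre if one was used, nor from how many females the oocytes came. The treatment text shared by all samples names PMSG and hCG, given to stimulate follicles and ovulation, and it names Btg4-/- rather than Erk-/- females. The series also holds a wild-type and an Erk-/- library of mature (MII) oocytes, used here as a side comparison. With 1 library per group no difference could be tested: each is between 1 library and another, and at least 2-fold is a rule of size.

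A GV oocyte is arrested in the first meiotic prophase, its large nucleus still intact. It has nearly stopped transcription and holds the store of maternal mRNA that carries it through maturation and the first cleavage. The ERK kinases stand at the end of a relay in which a MAP3K (MOS in oocytes) activates the MEK kinases and these activate ERK. In mouse oocytes this relay is switched on after the germinal vesicle breaks down, where it acts on spindle shape, on the metaphase arrest of the egg and on the translation and removal of stored mRNA. The series' title concerns the part of ERK in the degradation of maternal mRNA, and the GV libraries show the store before that step.

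The ERK1 gene Mapk3 (mm9 chromosome 7, 133903140 to 133909330) stood at 333 FPKM in the wild-type GV library and at 52.3 in the Erk-/- GV library, 6.37-fold lower. The GV libraries thus went with their labels for this gene, and the Erk-/- library kept 15.7% of the wild-type level. Most markers of the cells that surround an oocyte were listed at 0 in both, though not all. Of 30 granulosa and cumulus markers, 22 were listed at 0 in both libraries, among them the granulosa genes Amh, Foxl2 and Fshr. The list summed to 152 FPKM in wild type and 126 in Erk-/-. Serpine2 (86.2 FPKM in wild type and 79.5 in Erk-/-) and Esr2 (37.0 and 17.1) made up most of these sums, and Nr5a2 had 6.84 and 17.0. Cyp19a1, which encodes aromatase, had 15.5 FPKM in wild type and was listed at 0 in Erk-/-, while the inhibin gene Inha had 3.80 and 11.3. Of 14 theca, stroma and surface markers 12 were at 0 in both (8.24 and 0 FPKM summed), and of 18 blood, macrophage and endothelial markers 15 were at 0 in both (27.6 and 52.2 summed). The endothelial gene Pecam1 made up most of the latter, with 25.6 FPKM in wild type and 42.9 in Erk-/-. The part of other cells in the differences below was not tested. In libraries made from whole cells, fewer cells of a type and less RNA per cell cannot be told apart.

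At least 5 FPKM was reached by 7166 genes in wild-type and 6906 in Erk-/- oocytes, and by 5832 in both. On the log2(FPKM + 1) scale, used for every log2 ratio here and which understates the change of low genes, 1487 members (18.0%) were higher in Erk-/- by 2-fold or more and 1837 (22.3%) were lower by that much. Together 40.3% of members were 2-fold apart and 59.7% lay within 2-fold. The median log2 ratio was -0.08, with quartiles at -0.87 and 0.66. The authors' confidence bounds for a gene lay apart in all 3324 genes called and also in 3265 (66.4%) of the 4916 genes within 2-fold. These bounds describe the reads of 1 library and not the spread between mice. Bounds that lie apart therefore do not set a gene off from its neighbours. The FPKM itself lay above its own upper bound in 1018 entries of the wild-type and 796 of the Erk-/- GV library. In wild type these included Zp3 (4768 FPKM, upper bound 4193) and Mapk3 (333 FPKM, upper bound 316).

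Abundant mRNAs differed less. Among the 1037 genes of at least 100 FPKM in a GV library, 868 (83.7%) lay within 2-fold, 73 were higher and 96 lower. Of the 20 most abundant wild-type genes, 18 were also among the 20 most abundant in Erk-/-. The most abundant, Ldhb, which encodes a lactate dehydrogenase subunit, had 6619 FPKM in wild type and 4372 in Erk-/-. Ubb, a polyubiquitin gene, had 3654 and 2641, and Uchl1, a deubiquitinase that oocytes hold in large amounts, had 2919 and 2659. In this top group 19 of 20 values were lower in Erk-/-, with a median log2 ratio of -0.44, and the group's share of all FPKM was 12.5% in wild type and 10.4% in Erk-/-. All but the ribosomal protein gene Rpl39 (1488 and 717 FPKM, log2 ratio -1.05) stayed within 2-fold, and Rpl39 did so under median-of-ratios scaling (-0.99).

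**Figure D1:**
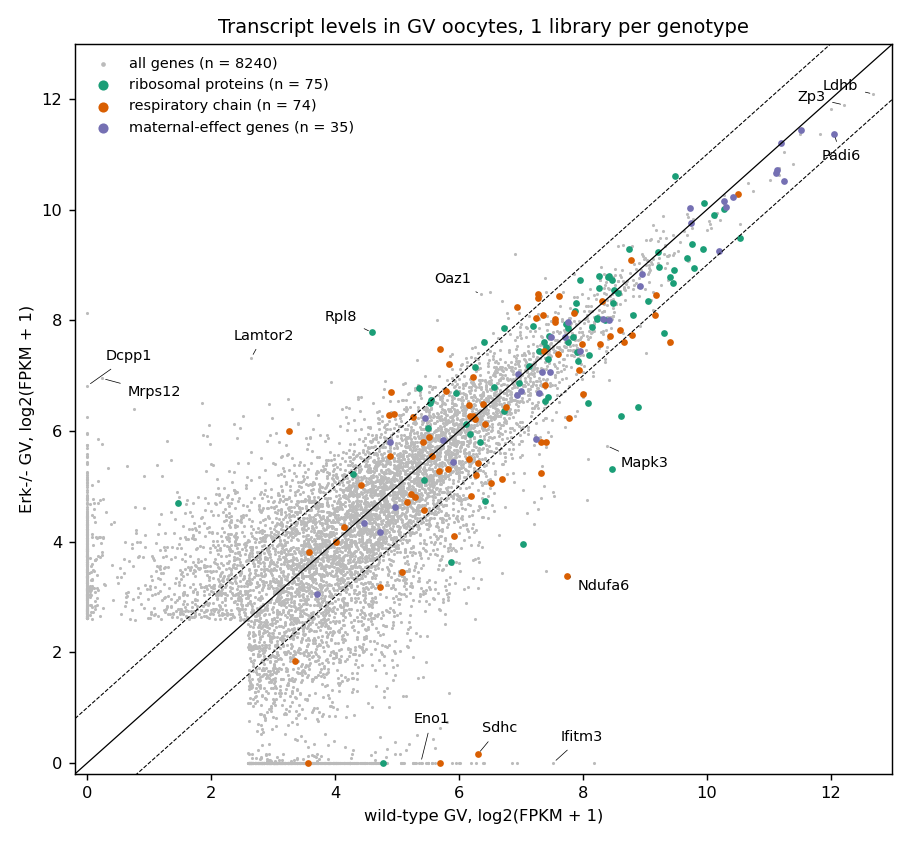
FPKM of the 8240 genes in the wild-type GV library (x axis) against the Erk-/- GV library (y axis), both as log2(FPKM + 1), with 3 gene lists in colour, the line of equality and dashed lines 1 log2 unit away. The most abundant genes lie along the line, while points along either axis are genes listed at or near 0 in a single library, such as Dcpp1 and Ifitm3.

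The share of genes 2-fold apart went down with the level of expression. In 5 bins of equal size by the mean of the GV libraries, with bin medians of 4.74, 9.78, 18.6, 36.5 and 102 FPKM, it was 73.5%, 50.4%, 37.3%, 26.8% and 13.7%. The lowest bin is partly fixed by the filter, since a mean under 5 FPKM passes through a single high library. In every bin more genes were lower than higher, as with 42.1% and 31.5% in the lowest and 7.65% and 6.01% in the highest. This holds for FPKM as deposited. With equal sums of FPKM, 1685 of all members were lower and 1653 higher. Most gene lists below are set beside all members and not beside genes of like level. Short transcripts differed more often among abundant genes. Where the mean was 50 FPKM or more, with levels not matched between bins, 22.8% were apart in the bin with a median length of 645 bases, against 3.65% in the bin with a median of 3493 bases. Low in the range, genes near to the limit of 5 FPKM show how the limit works. Srsf6 (3.97 FPKM in Erk-/-) and Spred1 (1.11 in Erk-/-) entered with a wild-type value just above it, and Arhgap29 (3.41 in Erk-/-), Tram2 and Zfp748 (0 in the lower library) stayed out with a value just under it.

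**Figure D2:**
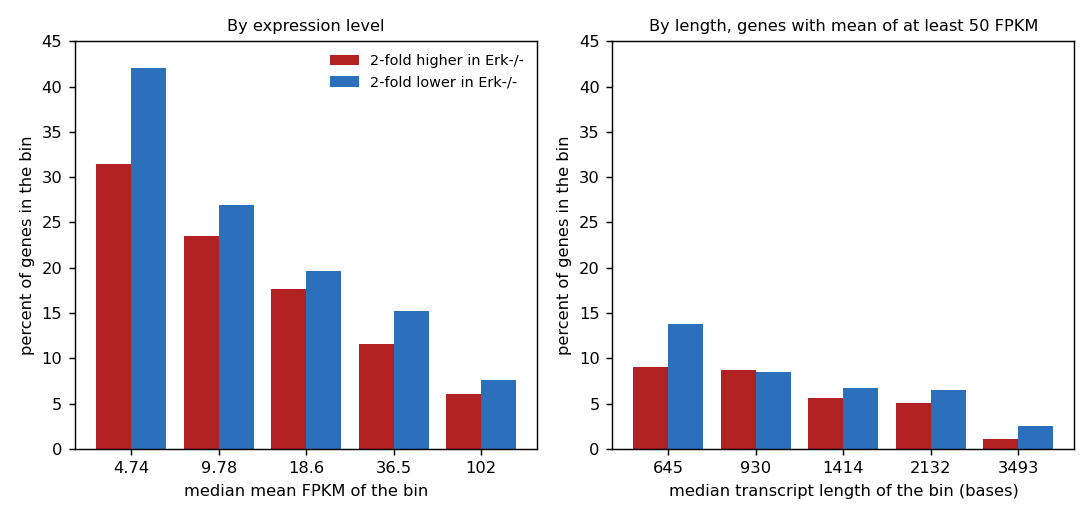
Percent of genes at least 2-fold higher (red) or lower (blue) in the Erk-/- GV library (y axis) in bins of mean FPKM (left, x axis is the bin's median) and, where the mean was 50 FPKM or more, in bins of transcript length (right, x axis is the bin's median in bases). Both colours go down from left to right, from 31.5% and 42.1% to 6.01% and 7.65% by level and from 8.99% and 13.8% to 1.12% and 2.53% by length.

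The relative depth of the Erk-/- library, judged from the width of the authors' bounds over 3525 genes, was 0.804 of the wild type. Only genes whose value lay within its own bounds in both libraries were used for it. An exact 0 in these files can be a failed estimate, and 347 members were listed at 0 in wild type and 486 in Erk-/-. All of these count as 2-fold apart, and no fold is given for them. Some genes that were low in a single GV library were not low in oocytes at the next stage, with similar shares under either label. Of the 611 lower genes with under 1 FPKM in Erk-/- GV, 153 (25.04%) had at least 5 FPKM in the MII library labelled Erk-/-. In wild-type MII, 124 (20.3%) of them did. Of the 476 higher genes with under 1 FPKM in wild-type GV, 98 (20.6%) had at least 5 FPKM in wild-type MII. In the MII library labelled Erk-/-, 97 (20.4%) of these did. The part of depth in these calls was not tested.

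Among protein-coding genes above 0 in both libraries, some of the largest ratios came from genes of unlike functions. Mrps12, which encodes a protein of the small mitochondrial ribosomal subunit (chromosome 7, 29524660 to 29526800), had 0.178 FPKM in wild type and 123 in Erk-/- (log2 ratio 6.72). Meaf6, a subunit gene of histone acetyltransferase complexes, had 0.129 and 57.2. Snrnp25, a gene of the minor spliceosome, had 0.690 and 83.0, and Psmd11, of the proteasome's regulatory particle, had 0.173 and 53.3. Rora, which encodes a nuclear receptor, had 0.0617 and 26.2, and Mrap, whose protein carries the ACTH receptor to the cell surface, had 0.555 and 40.1. In the other direction stood Sdhc, a membrane subunit gene of succinate dehydrogenase (chromosome 1, 173059288 to 173080734), with 78.2 FPKM in wild type and 0.116 in Erk-/- (log2 ratio -6.15). Npm3, a nucleoplasmin family histone chaperone gene (chromosome 19, 45822224 to 45824053), had 46.7 and 0.340. Thoc7, of the complex that links transcription to mRNA export, had 55.0 and 0.670, and Ppm1g, a protein phosphatase gene, had 31.9 and 0.117. Aprt, which salvages adenine, had 34.2 and 0.169, and Pcca, a subunit gene of propionyl-CoA carboxylase, had 56.3 and 1.39.

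Promoters of these extremes are shown beside that of an abundant gene within 2-fold, because ETS factors, AP-1 and CREB are textbook nuclear targets of the ERK pathway and their sites can be looked for in the sequence. Each runs 5′ to 3′ from 250 bases before to 50 bases after the start of the gene in RefSeq (GRCm38.p6). Capitals in Mrps12, Meaf6 and Lamtor2 mark the ETS core CCGGAAG, and in Zp3 they mark E-boxes (CANNTG), the site of FIGLA-type factors that drive zona genes, a motif added after the values were seen. Npm3 holds none of the 3 motifs searched first. The E-boxes of Meaf6 and Lamtor2 (2 each) and of Npm3 (1) are left unmarked.
Mrps12 (chr7:28741772-28742071, minus strand): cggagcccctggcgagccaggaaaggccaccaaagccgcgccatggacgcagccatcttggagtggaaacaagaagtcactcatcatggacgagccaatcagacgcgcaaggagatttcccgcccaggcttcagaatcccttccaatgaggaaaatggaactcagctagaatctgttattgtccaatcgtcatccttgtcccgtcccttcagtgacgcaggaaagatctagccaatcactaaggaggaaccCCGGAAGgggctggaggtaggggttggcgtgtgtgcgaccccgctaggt
Meaf6 (chr4:125084884-125085183, plus strand): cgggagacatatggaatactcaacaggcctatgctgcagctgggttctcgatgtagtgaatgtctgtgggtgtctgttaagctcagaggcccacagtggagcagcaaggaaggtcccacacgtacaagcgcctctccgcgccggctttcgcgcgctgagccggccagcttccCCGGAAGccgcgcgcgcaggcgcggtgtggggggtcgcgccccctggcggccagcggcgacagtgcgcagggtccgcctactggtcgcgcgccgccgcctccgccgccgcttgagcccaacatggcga
Lamtor2 (chr3:88552902-88553201, minus strand): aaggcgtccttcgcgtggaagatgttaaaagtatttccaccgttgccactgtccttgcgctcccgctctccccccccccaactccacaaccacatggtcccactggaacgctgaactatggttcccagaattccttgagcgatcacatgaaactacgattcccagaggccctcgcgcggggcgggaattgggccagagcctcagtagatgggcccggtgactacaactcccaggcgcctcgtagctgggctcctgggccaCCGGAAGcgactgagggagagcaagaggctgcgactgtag
Npm3 (chr19:45749516-45749815, minus strand): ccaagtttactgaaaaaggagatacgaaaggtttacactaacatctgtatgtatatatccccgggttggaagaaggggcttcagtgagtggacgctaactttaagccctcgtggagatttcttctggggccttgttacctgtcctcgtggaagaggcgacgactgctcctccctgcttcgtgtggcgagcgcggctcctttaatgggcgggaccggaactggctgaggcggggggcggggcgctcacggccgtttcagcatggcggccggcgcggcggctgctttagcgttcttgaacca
Zp3 (chr5:135979855-135980154, plus strand): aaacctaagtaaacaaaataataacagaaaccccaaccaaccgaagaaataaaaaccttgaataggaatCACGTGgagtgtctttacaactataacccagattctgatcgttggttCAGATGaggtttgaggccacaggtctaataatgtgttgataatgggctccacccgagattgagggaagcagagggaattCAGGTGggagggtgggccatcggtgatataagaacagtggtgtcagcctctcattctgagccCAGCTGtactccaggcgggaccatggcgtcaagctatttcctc
Counted on both strands over the 6671 members with such a window, CCGGAAG was in 20.9% of the promoters of higher genes, 23.0% of lower genes and 22.9% of those within 2-fold, against 8.86% of all 32851 windows in the table. The AP-1 site TGACTCA was in 4.20%, 4.63% and 4.19% (5.20% of all windows), and the CRE TGACGTCA in 2.77%, 4.56% and 3.91% (1.79%). E-boxes were in 68.7%, 66.7% and 66.9% (72.3%), and Zp3 has 4 of them. The ETS core and the CRE were thus more frequent in the promoters of genes expressed in GV oocytes than in the whole table, with close shares in the 3 classes for ETS, AP-1 and E-boxes. These letters are a description of the windows and not of bound sites.

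Among genes of at least 100 FPKM, the higher extremes after Dcpp1, Mrps12 and Lamtor2 included Rpl8 (23.1 FPKM in wild type, 220 in Erk-/-), Oaz1 (80.6 and 354), Commd3 (26.8 and 120) and Polr2e, a subunit gene of RNA polymerases (39.0 and 156). The lower extremes included Ndufa6 of respiratory complex I (213 and 9.39), Rpl22l1 (169 and 10.05), Mrps16 (268 and 26.0), Fkbp2, a prolyl isomerase gene of the endoplasmic reticulum (103 and 9.76), Rln3, a relaxin gene (147 and 19.06), and Rpa3, a subunit gene of the single-strand DNA binding complex RPA (154 and 22.9). Listed at 0 in wild type were Dcpp1 (112 FPKM in Erk-/-), Tmem208 (61.6), Acbd7 (60.3), Morn3 (53.002) and Def6 (52.6). Listed at 0 in Erk-/- were Ifitm3, a membrane protein gene of the interferon response (183 FPKM in wild type), Ddt (76.4), Psmg3 (71.8), Mrpl42 (63.1) and Smim4 (60.7).

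Several of these genes lie beside or within a near copy whose value differed in the other direction, and their values are uncertain because reads of near copies can be split between them. The pseudogene model Oaz1-ps lies inside the Oaz1 locus (chromosome 10, 80289401 to 80292035) and had 288 FPKM in wild type and 0.000225 in Erk-/-. Oaz1, which encodes an inhibitor of polyamine synthesis, and Oaz1-ps together had 369 and 354 FPKM. Eno1, which encodes a glycolytic enolase, had 40.7 and 0.000106 FPKM, while the overlapping model Gm5506 had 4.18 and 69.3, and their sum was 44.9 and 69.3. Ifitm3 and its neighbour Ifitm6 (89.4 and 365 FPKM) summed to 272 and 365 with the rest of the family at 0. Dcpp1 and its neighbour Dcpp3 (14.2 in wild type, 0 in Erk-/-) are also near copies. Here the family summed to 14.2 and 112 FPKM, so the sums stayed more than 2-fold apart. In all, 35 pairs of genes with shared locus had 1 gene higher and the other lower, and in 32 of them the sum lay within 2-fold, as values moving in opposite directions tend to give. Sharing a locus with another symbol did not mark the called genes as a class. Of 1423 members that share bases with another symbol 41.3% were 2-fold apart, and of the 6817 that do not, 40.1%.

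In the ERK cascade, Mos and the MEK genes upstream of ERK were close to the wild-type level. Mos, the oocyte's MAP3K, had 332 FPKM in wild type and 225 in Erk-/-. The MEK genes Map2k1 and Map2k2 had 83.6 and 81.3, and 31.9 and 37.6. Downstream, Rps6ka1, the gene of the ERK-activated kinase RSK1, had 12.0 and 2.91, and Mknk2, whose kinase phosphorylates the cap-binding factor eIF4E, had 15.2 and 4.91. The related Rps6ka3 (10.3 and 15.2) and Rps6ka6 (10.03 and 9.31) stayed within 2-fold, and Rps6ka5, of the ERK-activated kinase MSK1 and in none of the lists, was higher (0.0214 and 9.77). Also upstream, Araf (6.82 FPKM in Erk-/-) and Sos2 (5.16) were listed at 0 in wild type. Of the 20 cascade genes that passed, 2 were higher, 3 lower including Mapk3, and 15 within 2-fold, a smaller share apart than the 40.3% of all members (median -0.33, all members -0.08).

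LAMTOR proteins form the scaffold that holds MEK and ERK at the late endosome. Lamtor2, in none of the lists and drawn out by its size, had 5.26 FPKM in wild type and 160 in Erk-/-, 30.3-fold higher (chromosome 3, 88353741 to 88356849). Its partner in that scaffold, Lamtor3, had 83.1 and 99.1. Lamtor1 had 141 and 107, Lamtor4 had 20.4 and 38.5 and Lamtor5 had 92.8 and 164. Lamtor2 was therefore the single LAMTOR gene past 2-fold.

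Other MAP kinase genes were few. Mapk14, the gene of p38 alpha, had 6.28 and 5.99 FPKM, Mapk8 and Mapk9 of the JNK group had 20.3 and 16.7, and 15.1 and 9.79, and the atypical Mapk6 had 37.2 and 26.9. Mapk11, of p38 beta, had 12.3 in wild type and 0.0514 in Erk-/-, and Mapk7, of ERK5, had 2.21 and 6.48. Of the 6 that passed, 1 was higher and 1 lower, 33.3% apart beside 40.3% of all members.

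Genes that feed back on ERK and are often read as signs of its activity were apart as often as members at large. Dusp7, a phosphatase gene of cytoplasmic ERK, had 65.9 FPKM in wild type and 115 in Erk-/-, and Dusp1 had 19.14 and 36.3. Spry4, an inhibitor of receptor signals, had 50.8 and 72.2, and its relative Spry1 had 4.39 and 25.5. Dusp4 was listed at 0 in wild type and had 17.7 in Erk-/-. Spred1 (5.01 and 1.11) and Spred2 (8.20 and 2.16), inhibitors of the relay upstream of ERK, were lower. Of 10 that passed, 2 were higher, 2 lower and 6 within 2-fold (median 0.42), so 4 of 10 were apart against 40.3% of all members.

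Genes of the immediate early list, many of them transcription factors that ERK switches on in dividing cells, were nearly absent. Of 26, 6 passed 5 FPKM and 11 were listed at 0 in both libraries, among them Fos, Junb, Myc and Egr2. Srf, which encodes serum response factor, had 7.80 FPKM in wild type and 46.0 in Erk-/-, and Jund had 3.62 and 17.1. Klf4 had 7.87 and 1.06, Elk4, an ETS partner of Srf, had 6.69 and 0.0333, and Ier3 had 6.74 and was listed at 0. Of the genes that passed, Fosb alone (3.42 and 6.14) was within 2-fold, beside 59.7% of all members. Klf4, Elk4 and Ier3 fall in the lowest bin of expression, where 73.5% of members were 2-fold apart, and Jund in the next, with 50.4%. Srf falls in a higher bin, where 26.8% were apart.

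**Figure D3:**
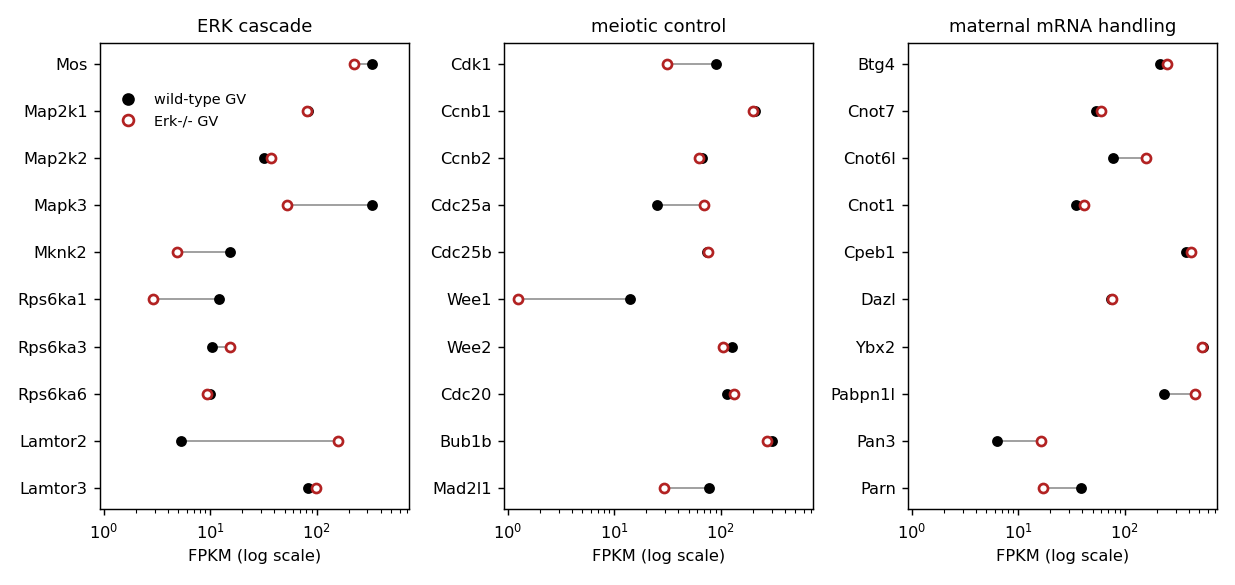
FPKM on a log axis of 10 genes each of the ERK cascade, meiotic control and maternal mRNA handling, with the wild-type GV library as a filled and the Erk-/- GV library as an open circle joined by a line. Mapk3, Rps6ka1, Wee1 and Parn are lower and Lamtor2 and Pan3 higher in Erk-/-, while Map2k1, Ccnb1, Dazl and Ybx2 nearly coincide.

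Transcripts of the egg coat and of growth factors secreted by the oocyte were near the wild-type level in Erk-/- oocytes. Zp3, the zona protein that binds sperm in the classical scheme, had 4768 FPKM in wild type and 3811 in Erk-/-, and Zp2 had 2687 and 1819. Zp1 had 1238 and 1103. Gdf9 (4139 and 3611) and Bmp15 (1189 and 901), which signal to the granulosa cells, were within 2-fold, as was Bmp6 (68.4 and 116). All 9 genes of this list that passed were within 2-fold (median -0.20), beside 59.7% of all members. The list is abundant, with all but Fgf8 (21.2 and 24.8 FPKM) reaching 100 FPKM in a GV library. Of all members at that level, 83.7% were within 2-fold.

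Maternal-effect genes, whose products the embryo needs before its own genome is active, had the lowest share apart of the lists with at least 20 members that passed. Of 35 that passed, 34 were within 2-fold and 1 lower, so 2.86% were apart. The list is also abundant, with 26994 FPKM summed in wild type and 21758 in Erk-/-, and in the bin of highest expression over all members 13.7% were apart. Padi6, needed for the cytoplasmic lattices, had 4264 and 2641 FPKM. Its partners in the subcortical maternal complex were Nlrp5 (1172 and 612), Tle6 (2245 and 1694), Ooep (1242 and 1143) and Khdc3 (495 and 458). The linker histone gene H1foo had 2353 and 2363, the histone chaperone gene Npm2 had 1372 and 1209, and the maintenance methyltransferase gene Dnmt1 had 861 and 868. Nlrp9c, with 151 and 56.8, was the exception. The Nlrp genes are near copies of each other, and Nlrp5-ps (39.3 and 1.88 FPKM) shows the same direction as Nlrp5.

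Oocyte transcription factors kept their main members. Nobox, which drives oocyte growth genes, had 335 and 309 FPKM, Lhx8 had 95.1 and 135 and Pou5f1 had 283 and 220. Figla, the factor of the zona genes, had 13.8 and 32.1. Stat3 had 62.5 and 22.4, Foxj2 had 9.52 and 2.29, and Tbpl2, the TBP relative that replaces TBP in growing oocytes, had 9.94 FPKM in wild type and was listed at 0 in Erk-/-. Of 16 that passed, 1 was higher, 4 lower and 11 within 2-fold (median -0.34), against 59.7% of all members.

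In the machinery that removes poly(A) tails some genes were level and others apart, as often as over all members. Btg4, whose protein recruits CCR4-NOT to stored messages, had 216 FPKM in wild type and 250 in Erk-/-. The deadenylase gene Cnot7 had 53.4 and 59.4, and the scaffold gene Cnot1 had 34.8 and 41.6. Of the other catalytic subunit genes, Cnot8 had 49.5 and 64.0, and Cnot6 stayed under 5 FPKM (3.47 and 3.25). Cnot6l had 77.9 and 157, 2.02-fold higher. With 5 added to each value in place of 1, Cnot6l was just within 2-fold (log2 ratio 0.97). Pan3 (6.35 and 16.2), of the PAN2-PAN3 deadenylase, Pum2 (9.40 and 24.4), a translational repressor, Btg1 (0.882 and 5.93) and Pnldc1 (2.57 and 20.5) were also higher. Parn (38.5 and 17.0) and Tob1 (11.9, then listed at 0) were lower. Of 21 that passed, 5 were higher, 3 lower and 13 within 2-fold, 38.1% apart against 40.3% of all members (median 0.21).

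Among decapping, exosome and decay genes 2 of 23 were higher, 4 lower and 17 within 2-fold (median 0.15), against 59.7% of all members. The exosome genes Exosc1 (17.5 and 1.85 FPKM) and Exosc9 (21.2 and 3.72) were lower and Exosc2 (6.54 and 21.2) was higher. Marf1, needed in mouse oocytes for meiosis and for silencing of retrotransposons, had 31.3 and 6.78, and the decapping enzyme gene Dcp2 had 7.42 and 2.86. Dcp1a, whose protein is phosphorylated during maturation, had 96.0 and 138.

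Genes for poly(A) tails and mRNA storage were within 2-fold in 22 of 27, with 4 higher and 1 lower (median -0.03). The share within 2-fold over all members was 59.7%. Cpeb1, which binds the cytoplasmic polyadenylation element, had 376 FPKM in wild type and 418 in Erk-/-. Dazl, an RNA-binding activator of translation, had 73.8 and 75.9, and the mRNA-masking gene Ybx2 had 547 and 535. Its relative Ybx1 had 69.2 and 151, and Papd5, a poly(A) polymerase gene, had 7.93 and 25.7. Pabpn1l, a poly(A) binding protein gene of the oocyte, had 231 and 455. Cpsf1, of the cleavage and polyadenylation complex, had 7.77 and 1.86.

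Translation factors were within 2-fold in 33 of 36, beside 59.7% of all members, with 3 lower (median -0.02). Eif3b was the largest difference, with 56.8 and 9.30 FPKM, while the other subunits of the same complex, such as Eif3c (85.5 and 83.5) and Eif3a (9.32 and 9.27), were level. Among 19 messages whose translation is known to go up during maturation, 3 were higher, 2 lower and 14 within 2-fold (median -0.05). Ccnb1, the cyclin of CDK1, had 208 and 201, Plat had 400 and 654 and Tpx2 had 51.0 and 38.2. Il7 (4.22 and 15.8) and Ccnb3 (9.17 and 27.9) were higher with Cnot6l, and Rad51c (19.4 and 3.86) and Kif11 (12.1 and 3.31) lower.

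Genes that set the balance of CDK1 activity, and with it the GV arrest, were apart in single members. Cdk1 had 90.3 FPKM in wild type and 31.5 in Erk-/-. Its phosphatase gene Cdc25a had 25.2 and 69.7, while Cdc25b, the form needed for resumption of meiosis in the mouse, had 73.7 and 75.1. Of the inhibitory kinases, the somatic form Wee1 had 13.9 and 1.26 and the oocyte form Wee2 had 128 and 104. Ensa, which as a target of the Greatwall kinase restrains PP2A, had 8.19 and 52.9, and its relative Arpp19 had 32.3 and 39.9. Cdk4 had 21.4 FPKM in wild type and was listed at 0 in Erk-/-. Of 23 that passed, 3 were higher, 3 lower and 17 within 2-fold (median -0.03), against 59.7% of all members.

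The anaphase-promoting complex and its checkpoint had 6 lower and 1 higher of 30 genes (median -0.17), beside 22.3% and 18.0% of all members. Cdc26 (37.0 FPKM in wild type) and Anapc10 (5.83) were listed at 0 in Erk-/-, and Anapc11, the RING subunit gene, had 35.1 and 11.1. Mad2l1, which holds the complex back, had 77.9 and 29.5. The activators Cdc20 (115 and 134) and Fzr1 (146 and 138) and the inhibitor Fbxo43, EMI2 of the egg's arrest, (27.2 and 19.6) were within 2-fold.

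Among spindle and kinesin genes 6 of 35 were lower and 2 higher (median -0.15), beside 22.3% and 18.0% of all members. Kif20b (24.96 and 5.42 FPKM), Kif18a (12.5 and 3.39), Kif11 and Kif2a (23.4 and 9.75) were the lower motors. Kif5b, of kinesin-1, was higher (listed at 0 in wild type, 7.97 in Erk-/-), and Rcc1, of the RAN gradient, had 12.2 and 37.2. Tacc3 (545 and 480), Birc5 (594 and 695) and Aurkc (137 and 184), the abundant members, were within 2-fold. Tubulin and actin genes were within 2-fold in 24 of 27, with Actb at 72.5 and 147 and Arpc5 at 3.53 and 26.2. Among 13 cohesin and meiotic chromosome genes 3 were higher and 2 lower, 38.5% apart and so near the share of all members. The cohesin gene Smc1b had 13.0 and 2.26, and Rad21l, a meiotic cohesin gene, had 3.63 and 14.4. Tex12, of the synaptonemal complex, was listed at 0 in wild type and had 24.8 in Erk-/-.

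Signals that keep the oocyte arrested were close to wild type. Gpr3, the receptor that keeps cAMP high in mouse oocytes, had 45.4 and 76.5 FPKM, Gnas, of the stimulatory G protein, had 443 and 278, and the phosphodiesterase gene Pde3a had 51.7 and 28.9. Gja4, the oocyte's gap junction gene, had 366 and 486. Gja1, a gap junction gene of granulosa cells, had 0.0309 in wild type and 7.71 in Erk-/-, and Gpr12 had 8.89 and was listed at 0. Within 2-fold were 15 of 17 (median 0.04), beside 59.7% of all members. Among calcium and egg activation genes 2 of 17 were higher and 2 lower (median 0.23). Cd9, the tetraspanin of sperm-egg fusion, had 82.3 and 200, and Folr4, the egg's sperm receptor JUNO, had 334 and 330. Trpm7, a channel gene, had 9.45 and 25.6, and Itpr1, the calcium release channel of the egg, had 33.9 and 16.4 (log2 ratio -0.94 under median-of-ratios scaling, within 2-fold).

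More genes of mitochondrial energy supply were lower than higher, as over all members, though not in every complex. Of 74 nuclear genes of the respiratory chain that passed, 21 (28.4%) were lower and 9 (12.2%) higher, against 22.3% and 18.0% of all members, and the median was -0.32. In complex II, which has 4 subunit genes, Sdhc had 78.2 FPKM in wild type and 0.116 in Erk-/-, Sdhb had 102 and 33.9, Sdhd had 78.0 and 41.9 and Sdha had 46.5 and 45.6. Complex I had 10 lower and 4 higher of 36. Its lower genes included Ndufa6 and Ndufa5 (50.6, then listed at 0) and its higher genes Ndufa7 (8.56 and 63.1) and Ndufa3 (50.8 and 177). In complex III 2 were higher and 2 lower of 9, in complex IV 1 and 4 of 10, and in the ATP synthase 2 and 3 of 15. The Rieske protein gene Uqcrfs1 had 28.9 and 103, Cox5b had 255 and 100 and Atp5k had 681 and 194. Summed over the complex, the FPKM of complex I were 3261 in wild type and 2985 in Erk-/-, of complex II 305 and 121, of complex IV 2681 and 2239 and of the ATP synthase 4437 and 3260, while the sum of complex III was higher in Erk-/- (1154 and 1357, median log2 ratio 0.12).

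Mitochondrial ribosomal protein genes were looked at after the values of Mrps12 were seen. Of 76 symbols 71 passed, with 11 higher (15.5%), 26 lower (36.6%) and 34 within 2-fold and a median of -0.57, beside 18.0% and 22.3% of all members. They summed to 4179 FPKM in wild type and 2867 in Erk-/- over all 76. The lower ones included Mrpl14 (669 and 189), Mrps16 (268 and 26.0), Mrpl33 (159 and 26.5), Mrps17 (68.5 and 6.39) and Mrpl42 (63.1, then listed at 0). Mrps12 was joined on the higher side by Mrpl3 (listed at 0 in wild type, 30.6 in Erk-/-), Mrps10 (0.107 and 15.8) and Mrpl1 (6.46 and 27.2). Proteins of a single ribosome were thus encoded by transcripts that moved in both directions.

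**Figure D4:**
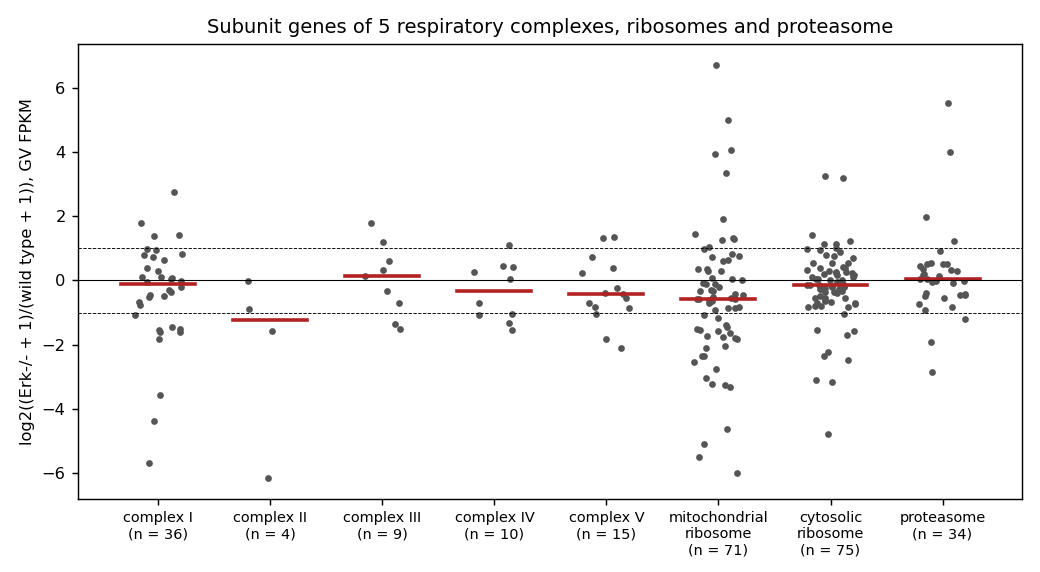
log2((FPKM + 1) ratio) of Erk-/- over wild-type GV (y axis) for the subunit genes of 5 respiratory complexes, the mitochondrial and cytosolic ribosomes and the proteasome (x axis), a point per gene that passed, a red bar at the median and dashed lines at 2-fold. Points spread to both sides in every complex except complex II, whose 4 genes all lie below 0, and the median of the mitochondrial ribosome lies at -0.57.

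In glycolysis and the citrate cycle 7 of 28 genes were lower and 3 higher (median -0.21), beside 22.3% and 18.0% of all members. The oxidised substrates of the oocyte pass through Ldhb, described above, Pdha1 of pyruvate dehydrogenase (29.4 and 4.59 FPKM) and the citrate cycle. There Idh3b (43.6 and 3.90) and Idh3a (53.9 and 15.8) were lower, as was Mdh1, of cytosolic malate dehydrogenase (66.9 and 7.84). Cs (115 and 108) and Fh1 (38.8 and 45.1) were level, and Idh1 (2.74 and 10.04) and Pfkm, a muscle-type phosphofructokinase gene, (4.33 and 19.9) were higher while Pfkl (24.7 and 4.18) was lower. Lipid and sterol genes were 3 higher, 3 lower and 14 within 2-fold of 20 (median -0.30), with Plin2, of the lipid droplet coat, at 18.4 and 1.90 and Acly at 3.09 and 15.2.

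Cytosolic ribosomal protein genes were within 2-fold in 58 of 75, beside 59.7% of all members, with 7 higher and 10 lower (median -0.14). They summed to 25089 FPKM in wild type and 21874 in Erk-/-, so the list is also abundant. In the bin of highest expression over all members 13.7% were apart, and here 13.3% of the small and 28.9% of the large subunit genes were. Rpl38 had 354 and 38.7, Rps25 had 130 and 14.4, Rpl32 had 475 and 85.1 and Rps28 had 392 and 76.6, while Rpl8, Rpl3 (1.76 and 25.05) and Rpl35 (719 and 1564) were higher. All 7 higher genes belong to the large subunit, where 6 of 45 were lower, and in the small subunit 4 of 30 were lower and none higher. These genes have many processed pseudogenes, and how reads of several matches were counted is not given in the sources used here.

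Proteasome genes were level as a group, with 27 of 34 within 2-fold, 4 higher and 3 lower (median 0.06). Their sums were 3388 and 3526 FPKM, and 59.7% of all members were within 2-fold. The differences sat in the regulatory particle, with Psmd11, Psmd10 (2.79 and 59.4) and Psmd9 (24.4 and 58.5) higher and Psmd7 (52.2 and 6.46), Psmd5 (69.1 and 17.7) and Psmc1 (106 and 45.2) lower. In the catalytic core 13 of 14 were within 2-fold, Psma3 (13.8 and 57.3) being higher. Whether the core and the regulatory particle differ in this was not tested.

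Of the 35 chaperone and stress genes that passed, 8 were higher (22.9%) and 4 lower (11.4%), beside 18.0% and 22.3% of all members (median -0.20). The small heat shock gene Hspb1 had 6.60 FPKM in wild type and 88.5 in Erk-/-, and Ddit3, the CHOP factor of the stress response, had 20.3 and 97.6. Hsf1, the heat shock factor, had 17.4 and 64.1, and the inducible Hspa1a and Hspa1b had 11.3 and 25.7, and 18.5 and 40.5. Lower were Hspe1, of mitochondrial chaperonin (137 and 64.1), Cct6a, of the cytosolic one (22.5 and 10.1), and Hspa2 and Gpx1 (5.95 and 5.94, then listed at 0). The abundant Hsp90aa1 (1067 and 860), Hspa8 (655 and 572), Sod1 (642 and 661) and Prdx1 (350 and 231) were within 2-fold. Time and temperature between collection and lysis are not given in the labels.

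Of 14 genes of p53 and apoptosis, 2 were higher and 6 lower (median -0.50), 57.1% apart against 40.3% of all members and against 50.4% and 73.5% in the lowest bins of expression. Trp63, which removes resting oocytes with damaged DNA, had 13.5 and 3.87 FPKM and Trp73 had 15.7 and 1.46. Casp8 (11.5 and 0.937), Casp2 (11.3 and 4.82), Mcl1 (7.88 and 3.30) and Diablo (17.3 and 7.86) were lower. Bax, the pore-forming killer, had 4.05 and 26.2, and Bid was listed at 0 in wild type and had 5.16 in Erk-/-. Bcl2l10, a survival gene abundant in oocytes, had 826 and 939. Most of the genes apart were low, and at a filter of 20 FPKM the list's median turned to 0.43.

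Of 31 chromatin modifiers, 6 were higher and 2 lower (median 0.01), beside 18.0% and 22.3% of all members. Eed, of Polycomb complex 2, had 18.7 and 72.5 FPKM, while its enzyme Ezh2 had 151 and 100. Hdac2, a histone deacetylase gene, had 20.8 and 55.7, and Dot1l had 6.51 and 23.3. Sirt1 had 16.3 and 1.802, and Smarca5 had 34.6 and 15.2. Tet3 (21.1 and 19.07), Dnmt3l (161 and 134) and Uhrf1 (483 and 392) were within 2-fold. Among histones and their chaperones 5 of 28 were higher and 3 lower (median 0.02). H3f3a, of histone H3.3, had 167 and 434 while its twin gene H3f3b had 191 and 184. H2afx had 17.1 and 85.4, H2afy was listed at 0 in wild type and had 21.1, and Npm3, Daxx (40.7 and 12.0) and Hist1h4c (14.6, then listed at 0) were lower.

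In the list of growth factor receptors and PI3K-mTOR, 3 of 24 were higher and 5 lower (median -0.17). Over all members these shares were 18.0% and 22.3%. Kit, the receptor that supports oocyte growth, had 99.0 and 89.2 FPKM. Pdpk1 (56.7 and 14.5) and Gsk3b (7.63 and 1.49) were lower and Pik3r1 (8.10 and 26.4) higher. Foxo3, the target of this pathway that holds follicles dormant, had 71.3 and 40.5. Of genes commonly used as references, Ppia had 234 and 75.9, Gapdh had 59.0 and 32.4 and Actb 72.5 and 147, so 3 of 14 were lower and 2 higher. Hprt (24.2 and 22.7) and Sdha were the closest to equal.

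Position was described as well, since a targeted allele can carry flanking DNA of another strain. Within 1 Mb of Mapk3, 37 other genes passed, of which 2 were higher and 7 lower (median -0.03). Here 24.3% were apart, a smaller share than the 40.3% of all members (18.0% higher and 22.3% lower). The lower ones included Mvp, of the vault particle (105.6 and 42.9 FPKM), Zfp553 (52.7 and 19.4), Phkg2, a phosphorylase kinase gene (7.75 and 2.25), and Zg16 (14.7, then listed at 0). Bola2 had 36.2 and 85.6, and Ypel3, the nearest gene of those named on the side of higher coordinates, was listed at 0 in wild type and had 9.89. Bcl7c (268 and 272) and Eif3c were level. Over 5 and 10 Mb the medians were 0.05 and -0.04, and chromosome medians ran from -0.22 on chromosome 1 to 0.00 on chromosome 12.

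The MII libraries, which share no library with the GV comparison, allow the same genes to be read at the next stage. The level of Mapk3 was 25.7 FPKM in wild-type MII against 34.3 in its counterpart labelled Erk-/-, so it was not lower there and directions drawn from that library rest on its label. Of all members, 32.9% were higher in labelled Erk-/- MII by 2-fold or more and 6.13% lower by that much. Of the 1487 genes higher at GV, 434 (29.2%) were higher and 131 (8.81%) lower at MII. Of the 1837 genes lower at GV, 583 (31.7%) were higher and 133 (7.24%) lower, and among genes within 2-fold at GV these shares were 34.5% and 4.90%. Genes of the 3 GV classes thus had close shares of higher genes at MII, 29.2% to 34.5%.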

How the data were processed

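Messenger RNA of 4 oocyte libraries was sequenced in paired ends on an Illumina HiSeq, per the labels' protocols. The authors deposited FPKM per gene symbol and its confidence bounds, per the file headers. CASAVA 1.8, TopHat and the mouse build mm9 are named in the submitters' processing notes. The program behind FPKM, its annotation, the confidence level, strand and the counting of reads with several matches were not given in the sources used here. FPKM holds no counts, so the depth in reads is unknown and only a relative depth was judged from the bounds, and the median half-width of the bounds (genes of at least 10 FPKM; 8.83% of the value for wild-type GV, 9.73% for Erk-/- GV) covers reads of 1 library, not the spread between mice.

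Groups were taken from sample titles. The 260 symbols on several rows were summed, and 1 was added to locus starts. Log2((FPKM + 1)/(FPKM + 1)) was computed in Python 3.11.15 with pandas 2.3.3 for genes of at least 5 FPKM in a GV library, and a ratio of at least 2-fold counted as higher or lower. Folds quoted for single genes are FPKM ratios without the added 1.

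The members, the 35 gene lists with genes in the files and the rules were chosen with earlier results of these data known. The naming rule took protein-coding genes on a single row: the 12 highest and 12 lowest ratios at 10 FPKM or more, the 10 highest and 10 lowest at 100 FPKM or more, 5 in each direction listed at 0 in the other library, the 20 most abundant, up to 5 per list, the genes within 1 Mb of Mapk3 and 19 fixed genes. Other list members, Lamtor, Ifitm, Dcpp and mitochondrial ribosome genes, near copies and the genes next to the 5 FPKM limit were chosen after their values were seen. Promoters came from RefSeq (GRCm38.p6), with a window for 6671 of 8240 members (81.0%). Some genes of the lists and near the limit are not reported here. Alternatives changed the added value, the filter, the scaling, the summing of rows, genes listed at 0, the use of the bounds and, chosen after seeing the data, loci that overlap.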

Additional observations from a re-analysis of the deposited data

Results flagged for a closer look

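Of 86 genes taken by size, abundance or as fixed genes, 13 were at least 2-fold apart one way between the GV libraries and at least 2-fold the other way between the MII libraries. With 1 library per group these differences between stages were not tested, and the MII library labelled Erk-/- is the one in which Mapk3 was not lower. Lower in Erk-/- at GV and higher at MII were 11 of them. Over all 1837 genes lower at GV, 31.7% were higher at MII, near the 32.9% of all members. Rpl38 had a log2 ratio of -3.16 at GV and 6.61 at MII, Rps25 -3.09 and 4.69, Rpl22l1 -3.94 and 4.72, and Rpl39 -1.05 and 2.21. Ndufa6 had -4.36 and 2.78, Mrpl42 -6.00 and 2.69, and Smim4 -5.95 and 4.63. Fkbp2 had -3.27 and 3.22, Aprt -4.91 and 3.19, Sox15 -4.80 and 2.62, and Cdk1 -1.49 and 3.59. In wild-type MII, Rpl22l1, Rps25, Mrpl42, Smim4 and Sox15 were listed at 0. Higher at GV and lower at MII were C1ql1, with 5.01 and -2.00, and Uqcrfs1, with 1.796 and -1.15. Over all 1487 genes higher at GV, 8.81% were lower at MII, beside 6.13% of all members.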

How the results depend on the processing

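No paired analysis was possible because each group has 1 library, and for the same reason no library could be left out. As reported, 1487 genes were higher and 1837 lower. A filter of 20 FPKM gave 642 higher and 768 lower of 4711 genes. The other choices tried gave 1109 to 2128 higher and 1351 to 2681 lower, and asking for bounds that lie apart removed none. Among them, leaving out genes whose locus overlaps another (1209 and 1527) was chosen after seeing the data. The excess of lower genes was smaller under median-of-ratios scaling (1591 higher and 1740 lower) and with equal sums of FPKM (1653 and 1685). The median of all genes was -0.08 as deposited, -0.02 under median-of-ratios scaling and 0.018 with equal sums of FPKM, a shift of 0.10 in that median; genes listed at 0 in Erk-/- do not move and low genes move less. Those scalings turned the sign of 5 list medians within 0.05 of 0 (poly(A) and storage, translation factors, messages translated during maturation, CDK1 and cyclins, cohesin). The early embryo markers rest on 1 gene that passed (1.09), and with lower limits their median was -0.046 (1 FPKM) and -0.38 (no filter). The median of immediate early genes turned from -0.71 to 0.49, 0.60, 2.42 and 0.69 with the limit at 1 FPKM, none, 20 FPKM, and without genes listed at 0. At 20 FPKM those of p53 and apoptosis (-0.50) and of lipid and sterol genes (-0.30) were 0.43 and 0.11. Of 259 named genes none past 2-fold changed direction, while 5 near equality changed sign under the scalings (Ccnb1, Eif3c, Taok2, Spin1 and Zbed3, the last under equal sums alone). With 5 added in place of 1, 24 came within 2-fold, among them Figla, Cnot6l, Actb and Hspa1b. Under at least 1 of the scalings Rpl39, Eif2s3x, Itpr1 and Esr2 came within 2-fold, and Eif1, Ube2a and Cd2bp2 passed it.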

Other observations

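Some large ratios fell on non-coding or predicted models. The highest of all members was that of Snhg9, a host gene of small nucleolar RNA, which was listed at 0 in wild type and had 280.2 FPKM in Erk-/- GV, and D5Ertd577e had 84.0 FPKM in wild type and 2.87e-46 in Erk-/-. Of the overlapping pairs with opposite directions, the Apoo and Apoo-ps models, of a mitochondrial lipid-binding protein, had 25.5 and 67.3 FPKM in wild type and 58.7 and 26.8 in Erk-/-, 92.8 and 85.5 summed. Ubl5 and Fbxl12 had 71.2 and 3.27 FPKM in wild type and 34.8 and 33.9 in Erk-/-, summing to 74.5 and 68.6.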
